A study of Mus musculus with 12 samples.

Results

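Dentate granule cells are the principal neurons of the dentate gyrus, the entry station of the hippocampus, and 10 genes that mark them were followed across hippocampal RNA libraries. The genes were Prox1, Tdo2, Dsp, C1ql2, C1ql3, Synpr, Calb1, Lrrtm4, Bhlhe22 and Dock10, taken as a named list and matched by Ensembl ID among 35812 gene IDs in the count table. All 10 were found, all 10 passed the filter on low counts, and the smallest count of any of them in any library was 33. The libraries came from whole hippocampus of 12 male C57BL/6 mice aged 8 weeks, 3 mice in each of 4 groups, with library totals between 18277208 and 23083678 counts. F0_Dep mice had depression induced by stress and F0_Ctl mice were normal. F1_Dep mice were sons of stress-induced depressed males and F1_Ctl mice were sons of normal males. The sources used here do not say how the stress was applied or which fathers and litters the F1 mice came from, so mice of 1 group may share them. Lane names appear in the labels of F1_Ctl libraries and in no others, so a difference in sequencing and the F1_Ctl group cannot be told apart.

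Granule cells receive input from the entorhinal cortex and send their axons, the mossy fibres, to CA3 pyramidal cells and to mossy cells of the hilus. They are also among the few neurons that are added in the adult rodent brain. Prox1 is the homeobox transcription factor that specifies and maintains granule cell identity, and Bhlhe22 is a basic helix-loop-helix transcription factor of developing and mature forebrain neurons. The other genes encode an enzyme (Tdo2), a junction protein (Dsp), secreted and membrane proteins of synapses (C1ql2, C1ql3, Lrrtm4 and Synpr), a calcium buffer (Calb1) and a signalling protein (Dock10). Calb1 and Synpr are also made by interneurons, and Calb1 by a share of CA1 pyramidal cells, so these 2 are not restricted to granule cells. Whether the other genes, Prox1 included, are restricted to granule cells was not tested. Because the RNA came from whole tissue, fewer granule cells and less of these RNAs per granule cell cannot be told apart.

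In F1_Dep hippocampus all 10 genes had lower levels than in F1_Ctl, and for each of them the 3 F1_Dep libraries lay below the 3 F1_Ctl libraries. Tdo2, Synpr and Lrrtm4 passed edgeR's quasi-likelihood F-test at a Benjamini-Hochberg adjusted p under 0.05 over 16178 genes. These 3 calls among 10 genes stand beside 0.124% of all genes tested that were called lower in that comparison, and the 10 non-overlapping genes beside 10.3% of all genes. The 10 genes were listed with earlier results of these data known, so these shares are no independent test. Prox1 was 2.54-fold lower in F1_Dep but missed the threshold (adjusted p of 0.102 by edgeR). In F0_Dep hippocampus none of the 10 genes differed from F0_Ctl past the threshold, where 0.494% of all genes were called. In counts scaled to library size by TMM, every gene's libraries overlapped between the F0 groups. By the same measure 27.4% of all genes had none that overlapped in that comparison.

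**Figure D1:**
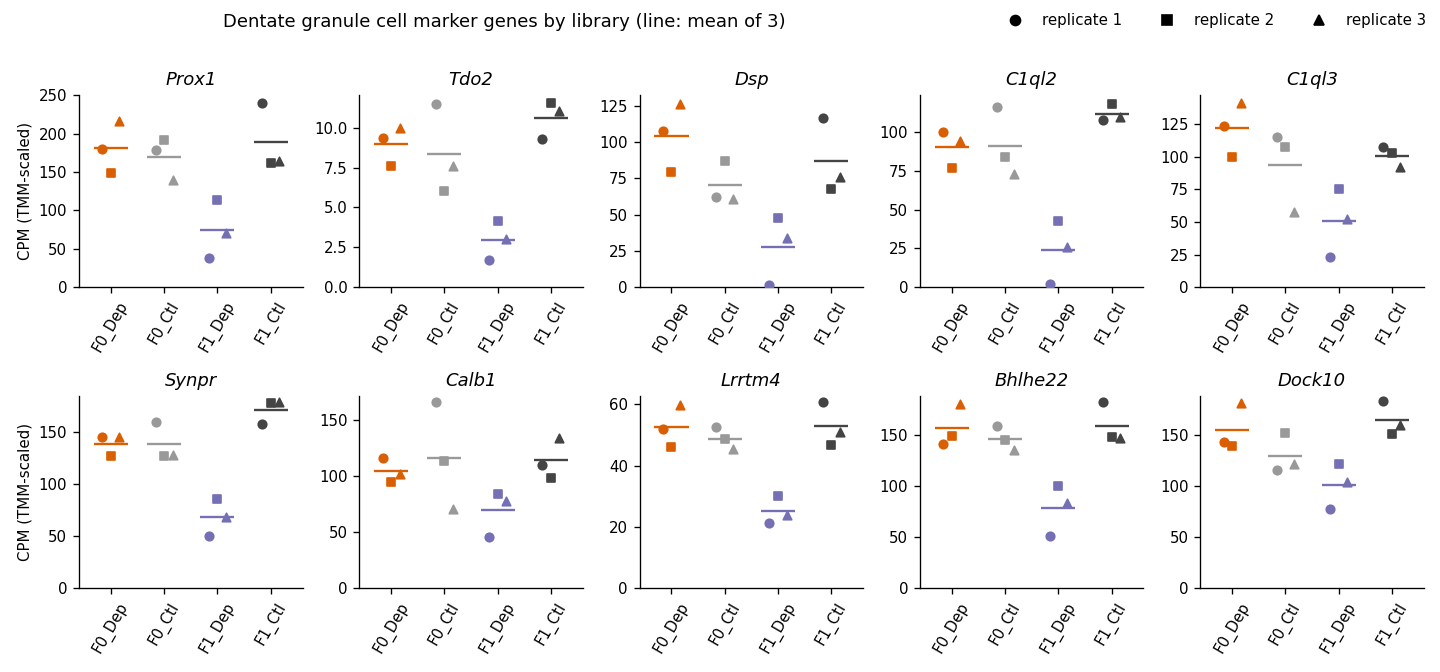
CPM (counts scaled to library size by TMM) of the 10 genes on linear axes that start at 0, 1 panel per gene, with 1 point per library, its shape giving the replicate number, and a line at the mean of each group of 3. The 3 F1_Dep libraries lie below the 3 F1_Ctl libraries in every panel, whereas the F0_Dep and F0_Ctl libraries overlap in every panel.

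The stretches before the start sites of Prox1 and of the 3 called genes are shown, since members that move together may be compared by the sequence they carry there. They are from RefSeq on GRCm38.p6, read 5′ to 3′ on the gene's strand and cover the 250 bases before a RefSeq start site. The Tdo2 window lies inside the GENCODE span of that minus-strand gene, which reaches 81976202. It is therefore not before the GENCODE start, and the same holds for the C1ql3 window, which is not shown. RefSeq windows were matched for 8 of the 10 genes. Prox1, Synpr, Lrrtm4 and Dock10 had 2 windows listed, and only the window nearest the GENCODE start was read. Capitals mark E-boxes, CANNTG on either strand, the motif bound by basic helix-loop-helix proteins.
Prox1, chr1:190170828-190171077, minus strand: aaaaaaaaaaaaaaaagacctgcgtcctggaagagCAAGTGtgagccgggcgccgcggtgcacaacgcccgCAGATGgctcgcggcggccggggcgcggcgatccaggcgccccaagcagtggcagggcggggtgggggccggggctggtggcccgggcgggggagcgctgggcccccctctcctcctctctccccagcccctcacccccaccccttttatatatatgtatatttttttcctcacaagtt
Tdo2, chr3:81975729-81975978, minus strand: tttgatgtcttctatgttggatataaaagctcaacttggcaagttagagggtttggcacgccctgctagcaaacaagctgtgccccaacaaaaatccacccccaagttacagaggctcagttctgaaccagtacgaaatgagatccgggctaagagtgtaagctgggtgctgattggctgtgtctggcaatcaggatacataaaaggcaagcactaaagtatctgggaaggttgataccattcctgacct
Synpr, chr14:13284530-13284779, plus strand: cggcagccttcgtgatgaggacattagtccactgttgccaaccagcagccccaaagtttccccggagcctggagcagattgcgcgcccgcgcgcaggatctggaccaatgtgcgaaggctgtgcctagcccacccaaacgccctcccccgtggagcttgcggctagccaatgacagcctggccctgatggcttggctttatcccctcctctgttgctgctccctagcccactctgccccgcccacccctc
Lrrtm4, chr6:80018627-80018876, plus strand: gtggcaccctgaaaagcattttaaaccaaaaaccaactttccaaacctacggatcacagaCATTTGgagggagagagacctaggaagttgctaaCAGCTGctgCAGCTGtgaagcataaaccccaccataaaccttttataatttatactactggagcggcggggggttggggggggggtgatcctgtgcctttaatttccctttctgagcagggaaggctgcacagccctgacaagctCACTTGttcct
The Prox1 window held 2 E-boxes and the Lrrtm4 window 4, and the Tdo2 and Synpr windows held 0. One of the E-boxes of Prox1 reads CAGATG, a form bound by NeuroD proteins, which drive granule neuron differentiation. That form, counted on both strands as CAGATG or CATCTG and included among the E-boxes, was in 14.4% of 32841 windows of the same length. In all, 5 of the 8 matched genes held at least 1 E-box, beside 66.2% of all windows. These are matches of letters only, and the 3 called genes did not share either motif searched.

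The transcription factors come first. Prox1 lies on chromosome 1 at 190118035-190170714 (GRCm38, minus strand) and is protein-coding. Its levels in CPM, counts scaled to library size by TMM, were 38.4, 113 and 71.2 in F1_Dep libraries 1 to 3, against 240.4, 161 and 165 in F1_Ctl libraries 1 to 3. Every F1_Dep library was below every F1_Ctl library, with F1_Dep 1 the lowest and F1_Ctl 1 the highest. The log2 fold change was -1.35 ± 0.31 (SE), with an adjusted p of 0.102 by edgeR. In the other generation Prox1 had 179.5, 149 and 217 CPM in F0_Dep, against 178.5, 192 and 139 in F0_Ctl. These groups overlapped, and the log2 fold change of 0.10 ± 0.31 had an adjusted p of 0.891. Bhlhe22, on chromosome 3 at 18054174-18057517 (plus strand), had 50.8, 100.3 and 83.2 CPM in F1_Dep, against 182, 148 and 147 in F1_Ctl. It was lower in all 3 F1_Dep libraries, but its log2 fold change of -1.03 ± 0.20 missed the threshold with an adjusted p of 0.0678 by edgeR. Its F0_Dep libraries, at 142, 149 and 180.4 CPM, overlapped the F0_Ctl libraries at 159, 145 and 135.

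Tdo2 encodes tryptophan dioxygenase, an enzyme known mainly from liver that opens the route from tryptophan to kynurenine. It lies on chromosome 3 at 81957090-81976202 (minus strand). F1_Dep libraries 1 to 3 had 1.70, 4.13 and 3.02 CPM, against 9.27, 11.6 and 11.03 in the F1_Ctl libraries. Both groups were well apart, and F1_Dep 1 was again the lowest. Tdo2 fell 3.58-fold in F1_Dep, and its log2 fold change was -1.84 ± 0.30 on the log2 scale (adjusted p of 0.0439 by edgeR). In F0_Dep it had 9.34, 7.59 and 9.98 CPM, against 11.5, 6.04 and 7.58 in F0_Ctl, and the 2 groups overlapped. Dsp encodes desmoplakin, the plaque protein that ties cell junctions to intermediate filaments and a long-used marker of granule cells in the mouse. It lies on chromosome 13 at 38151294-38198577 (plus strand). F1_Dep libraries had 1.75, 47.6 and 33.9 CPM of it, against 117, 67.7 and 75.7 in F1_Ctl libraries. The first F1_Dep library had almost none. The log2 fold change was -1.64 ± 0.67 (adjusted p of 0.280 by edgeR) with all libraries and -1.09 without that library (adjusted p of 0.225 by edgeR), so it missed the threshold in both. In F0_Dep Dsp had 108, 79.7 and 126 CPM, against 62.5, 86.8 and 61.1 in F0_Ctl, which overlapped through the second library of each group.

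The synaptic proteins held 2 of the 3 calls. Synpr encodes synaptoporin, a synaptic vesicle membrane protein abundant in mossy fibre terminals, and lies on chromosome 14 at 13284780-13616340 (plus strand). It had 50.5, 85.4 and 68.0 CPM in F1_Dep, against 158, 178 and 179 in F1_Ctl. All 3 F1_Ctl libraries lay close together and the F1_Dep libraries were all far below them. Synpr fell 2.53-fold, its log2 fold change was -1.34 ± 0.16 (adjusted p of 0.0312), and its unadjusted p ranked 1 of the 16178 genes in edgeR's test. In F0_Dep it had 145.5, 127 and 145.4 CPM, against 159.7, 127 and 129 in F0_Ctl, and its log2 fold change was 0.01 ± 0.16 (adjusted p of 0.984 by edgeR). Lrrtm4 encodes a postsynaptic adhesion protein that binds heparan sulphate proteoglycans and organises excitatory synapses on granule cell dendrites. It lies on chromosome 6 at 80018877-80810143 (plus strand). Lrrtm4 had 21.3, 30.0 and 23.7 CPM in F1_Dep, against 60.9, 46.9 and 50.9 in F1_Ctl, with no overlap. It fell 2.11-fold in F1_Dep, and its log2 fold change was -1.08 ± 0.15 (adjusted p of 0.0312 by edgeR). In F0_Dep it had 52.0, 45.9 and 59.7 CPM, against 52.5, 48.5 and 45.3 in F0_Ctl, which overlapped.

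C1ql2 and C1ql3 encode secreted C1q-like proteins that granule cells release at mossy fibre synapses, where they help to recruit kainate receptors. C1ql2, on chromosome 1 at 120340582-120343174 (plus strand), had 2.21, 42.9 and 25.7 CPM in F1_Dep, against 108, 118 and 109.7 in F1_Ctl. It had the most negative fold change of the 10 genes, and all 3 F1_Dep libraries were far below the F1_Ctl libraries, F1_Dep 1 most of all. The log2 fold change of -2.23 ± 0.61 had an adjusted p of 0.133 with all libraries. Without F1_Dep 1 it was -1.70 and passed, with an adjusted p of 0.0374 by edgeR. C1ql3, on chromosome 2 at 13003457-13011806 (minus strand), had 23.4, 75.7 and 52.7 CPM in F1_Dep, against 108, 103 and 91.9 in F1_Ctl. It was lower in every F1_Dep library, with a log2 fold change of -0.99 ± 0.35 and an adjusted p of 0.220 by edgeR. In F0_Dep, C1ql2 ranged between 77.0 and 99.9 CPM and C1ql3 between 100.1 and 142 CPM. In F0_Ctl, C1ql2 ranged between 72.6 and 116 CPM and C1ql3 between 57.6 and 115 CPM, so neither gene separated the F0 groups in CPM.

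Calb1 encodes calbindin, the calcium-binding protein of mature granule cells, and lies on chromosome 4 at 15881264-15908064 (plus strand). It had 45.6, 84.2 and 77.6 CPM in F1_Dep, against 109.7, 98.2 and 134 in F1_Ctl. These did not overlap, but the gap was small beside the spread, and the log2 fold change of -0.72 ± 0.28 had an adjusted p of 0.263 by edgeR. Its F0_Dep libraries, at 116, 94.5 and 102 CPM, lay within the wide range of the F0_Ctl libraries, at 166, 113 and 70.1. Dock10 encodes a guanine nucleotide exchange factor that acts on the actin cytoskeleton of dendritic spines, and lies on chromosome 1 at 80501073-80758527 (minus strand). It had 77.7, 121 and 104 CPM in F1_Dep, against 183, 151 and 159 in F1_Ctl. Dock10 was lower in all 3 F1_Dep libraries, with a log2 fold change of -0.71 ± 0.17, the smallest of the 10 in size, and an adjusted p of 0.105 by edgeR. Its F0_Dep libraries, at 143, 139 and 181 CPM, overlapped the F0_Ctl libraries at 116, 151 and 122.

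**Figure D2:**
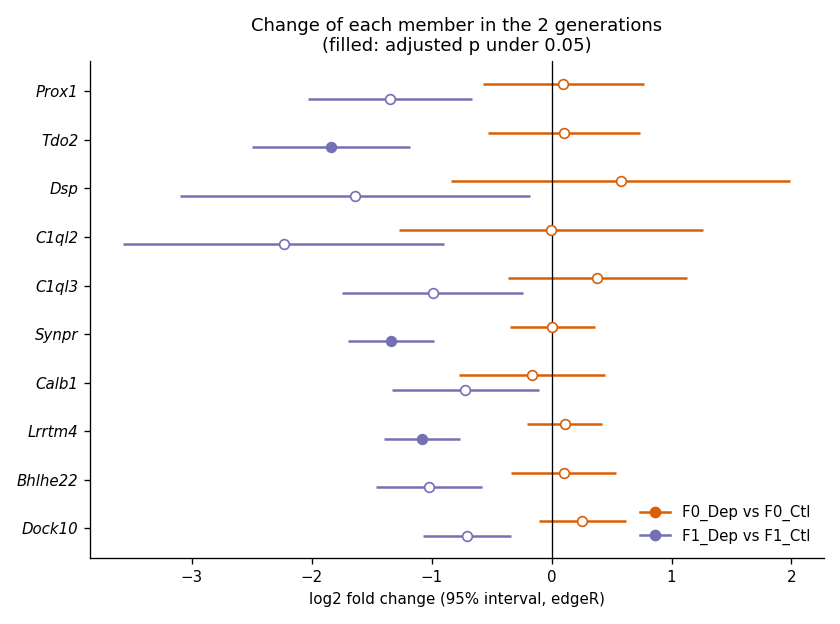
Log2 fold change of each gene with its 95% interval from edgeR, F0_Dep against F0_Ctl above F1_Dep against F1_Ctl for each gene, with filled points at an adjusted p under 0.05. The filled points are Tdo2, Synpr and Lrrtm4 in the F1 comparison, and every F0 interval contains 0.

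Across the 10 genes the median log2 fold change in F1_Dep against F1_Ctl was -1.21, where the median over all tested genes was -0.02. The unadjusted p was under 0.05 for all 10 genes, beside 8.49% of all genes tested that were lower at that level. The 3 calls depended on single libraries and on the fit. The count was 0 without F1_Dep 3 and 0 without F1_Ctl 2, where 0% of all genes were called. It was 2 without F1_Ctl 3, beside 0.133% of all genes called in either direction, and 4 without F1_Ctl 1, beside 4.11%. It was 6 with DESeq2, which added Prox1 (adjusted p of 0.00114), Bhlhe22 and Dock10 and called 3.34% of all genes it adjusted, in either direction. With only the 6 F1 libraries in the edgeR fit the count was 0, with adjusted p-values of 0.117 for Synpr, 0.117 for Lrrtm4 and 0.140 for Tdo2, and 0 genes were called of all those tested.

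In F0_Dep against F0_Ctl the median of the 10 genes was 0.10, where that of all genes was -0.04. Of the 10 genes, 8 were higher and 2, C1ql2 and Calb1, were lower, none past the threshold and none at an unadjusted p under 0.05, a level that 19.7% of all genes reached. C1ql2 was at -0.006 with TMM and at 0.007 with DESeq2, which also called 0 of the 10, beside 6.78% of all genes. The largest difference was that of Dsp, at 0.58 ± 0.65 on the log2 scale (adjusted p of 0.655 by edgeR). The intervals were narrowest for Lrrtm4, from -0.20 to 0.42, and for Synpr, from -0.35 to 0.36, and widest for Dsp, from -0.84 to 1.99.

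The change in F1 minus the change in F0 was tested as an interaction. With all 12 libraries it was negative for all 10 genes, with a median of -1.36 where that of all genes was 0.00245. It passed for 0 of the 10, beside 0.068% of all genes called. Adjusted p-values by edgeR were 0.0722 for Synpr and for Lrrtm4 and 0.0975 for Tdo2. At an unadjusted p under 0.05 there were 9 of the 10 genes, all except Calb1, beside 7.41% of all genes that were lower at that level. DESeq2 called 6 of the 10, namely Prox1, Tdo2, Synpr, Lrrtm4, Bhlhe22 and Dock10, beside 3.18% of all genes.

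F1_Dep was also set against F0_Ctl, the normal mice of the older generation, a comparison that shares the F1_Dep libraries with the one above. All 10 genes were lower, with a median of -0.99 where that of all genes was -0.01, and none passed in a comparison in which 0% of all genes were called. At an unadjusted p under 0.05 there were 8 of the 10, all except Dsp and Dock10, beside 6.3% of all genes that were lower at that level, and DESeq2 called 5, beside 2.77% of all genes. The libraries did not overlap for 7 of the 10 genes, beside 10.5% of all genes. C1ql3, Calb1 and Dock10 overlapped. The smallest adjusted p-values by edgeR were 0.0751 for Lrrtm4, at a log2 fold change of -0.96 ± 0.15, and 0.0782 for Synpr, at -1.03 ± 0.16. Prox1 was at -1.19 ± 0.31 with an adjusted p of 0.165. F1_Ctl against F0_Ctl gave 9 of the 10 genes higher and a median of 0.23, with 0 of the 10 past the threshold where 0% of all genes were called by edgeR or by DESeq2, and 0 at an unadjusted p under 0.05, a level that 5.9% of all genes reached. DESeq2 called 0 of the 10.

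Whether Prox1 was lower by as much as Tdo2 and Synpr was tested on ratios within each library, in which library scaling cancels. Tdo2 relative to Prox1 was -4.37 ± 0.24 in F1_Dep and -4.07 ± 0.48 in F1_Ctl on the log2 scale (SD, n = 3 each). The difference of -0.30 was within the overlap of the groups, with an exact two-sided permutation p of 0.4, in a design whose smallest possible p is 0.1. Synpr relative to Prox1 was -0.03 ± 0.40 in F1_Dep and -0.11 ± 0.43 in F1_Ctl, a difference of 0.09 with an exact permutation p of 0.8. The sign of that difference turned without F1_Dep 1, to -0.12, and without F1_Ctl 1, to -0.16. In F0_Dep against F0_Ctl the differences were 0.04 for Tdo2 (exact permutation p of 1.0) and -0.08 for Synpr (exact permutation p of 0.6). In F1_Dep against F0_Ctl they were -0.07 for Tdo2 (exact permutation p of 0.9) and 0.26 for Synpr (exact permutation p of 0.4). All 6 tests had a Benjamini-Hochberg adjusted p of 1.0, and the groups overlapped in each. Relative to Prox1, therefore, neither gene differed between groups by more than the spread between libraries, which does not show that the 3 genes changed alike.

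**Figure D3:**
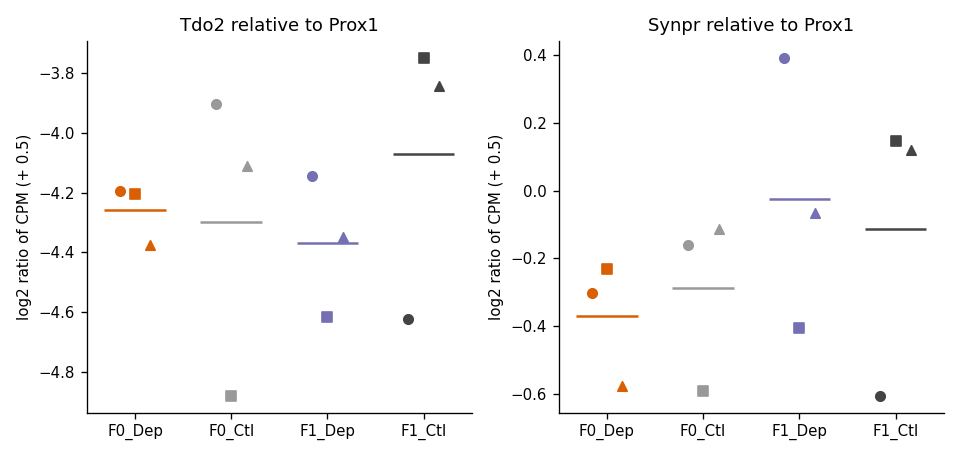
Log2 ratio of Tdo2 and of Synpr to Prox1 in each library, from CPM plus 0.5, with 1 point per library, its shape giving the replicate number, and a line at the mean of each group of 3. The groups overlap in both panels.

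The same ratios for the other 7 genes are given as values. In F1_Dep against F1_Ctl, C1ql2 relative to Prox1 differed by -1.50 on the log2 scale and Dsp by -1.003. The Dsp ratio was -4.11 in F1_Dep 1, against -1.24 and -1.06 in the other F1_Dep libraries and -1.25 to -1.04 in F1_Ctl, so its difference rested on 1 library. The C1ql2 ratio was -3.84 in F1_Dep 1, against -1.39 and -1.45 in the other F1_Dep libraries and -1.16 to -0.45 in F1_Ctl. The ratio of the other 5 was higher in F1_Dep, by 0.73 for Dock10, 0.70 for Calb1, 0.38 for Bhlhe22, 0.38 for Lrrtm4 and 0.31 for C1ql3. For Dock10 and C1ql2 the ratios of the 2 groups did not overlap. In F0_Dep against F0_Ctl the ratios of Dsp, higher by 0.47 in F0_Dep, and of C1ql3, higher by 0.34, did not overlap either. The share of all genes without overlap in such a ratio was not counted.

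The 3 F1_Dep libraries differed from each other in how far the genes lay below the F1_Ctl mean. F1_Dep 1 was the lowest for all 10 genes, with a median departure of -1.93 on the log2 scale. In that library C1ql2 stood at 2.07% of the F1_Ctl mean and Dsp at 2.19%, whereas Prox1 stood at 20.7%, Synpr at 29.5% and Dock10 at 47.5%. F1_Dep 3 followed, with a median departure of -1.23, and ranged between -2.11 for C1ql2 and -0.54 for Calb1. F1_Dep 2 was nearest to the F1_Ctl mean, with a median departure of -0.76, C1ql2 at -1.38 and C1ql3 at -0.41. All 10 genes were below the F1_Ctl mean in each of the 3 libraries, and C1ql2 had the largest departure in each.

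**Figure D4:**
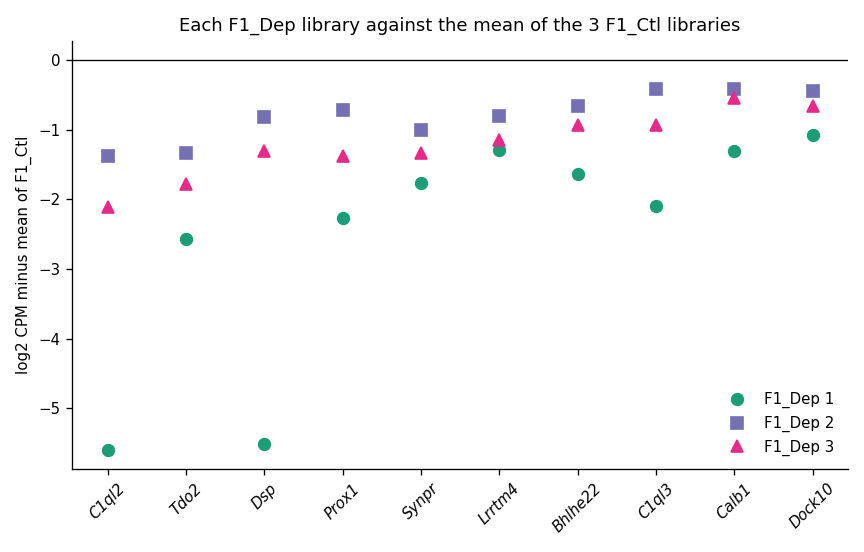
Log2 CPM of each gene in the 3 F1_Dep libraries minus the mean log2 CPM of the 3 F1_Ctl libraries, with genes ordered by their fitted fold change. All points lie below 0, and F1_Dep 1 is the lowest for every gene, with C1ql2 at -5.60 and Dsp at -5.51.

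Tissue composition moved between libraries beside these changes. To give each marker list 1 level per library, log2 CPM of each gene were centred on the gene's mean over the 12 libraries and the median over the list was taken. The level of the 10 genes was -1.58, -0.33 and -0.76 in F1_Dep 1 to 3, between 0.25 and 0.48 in F1_Ctl, between 0.13 and 0.52 in F0_Dep and between 0.08 and 0.37 in F0_Ctl. Their summed CPM ranged between 313 and 704 in F1_Dep, 1084 and 1275 in F1_Ctl, 968 and 1257 in F0_Dep, and 839 and 1137 in F0_Ctl. F1_Dep 1 also held the most striatal RNA. Its 9 striatal markers, such as dopamine receptor Drd1, summed to 1491 CPM, against 370 and 279 in the other 2 F1_Dep libraries and 200.2 to 287 in F1_Ctl. All 9 were higher in F1_Dep than in F1_Ctl, none past the threshold but all 9 at an unadjusted p under 0.05, beside 6.32% of all genes that were higher at that level. Their median log2 fold change was 1.61, and 0.42 without F1_Dep 1. Without that library the 10 granule cell genes were all still lower, with a median of -1.01, and 3 were called, C1ql2, Synpr and Lrrtm4, beside 0.127% of all genes, while Tdo2 missed the threshold with an adjusted p of 0.0835 by edgeR.

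The 9 choroid plexus markers, genes of the fluid-secreting tissue beside the hippocampus, summed to between 2785 and 4487 CPM in F1_Dep, 130.0 and 9019 in F1_Ctl, 38.5 and 260 in F0_Dep, and 40.2 and 4976 in F0_Ctl. By that sum the 2 highest libraries were F1_Ctl 3, in which the level of the granule cell genes was 0.36, and F0_Ctl 3, in which it was 0.08. By the level of the list F1_Ctl 3 was the highest at 3.82, followed by F1_Dep 2 at 2.78, F1_Dep 3 at 2.77, F0_Ctl 3 at 2.64 and F1_Dep 1 at 1.54. Choroid plexus markers were higher in F1_Dep than in F1_Ctl for 8 of 9 genes, with a median of 0.21 and none called.

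When F1_Dep 1, F1_Ctl 3 and F0_Ctl 3 were all left out, which was chosen after seeing the data, the median of the 10 genes in F1_Dep against F1_Ctl was -1.07. There were then 6 calls, Prox1, Tdo2, C1ql2, Synpr, Lrrtm4 and Bhlhe22, beside 2.06% of all genes. In the same fit 7 of 9 choroid plexus markers were called, at a median log2 fold change of 3.50, so the remaining F1_Dep libraries were also further from the remaining F1_Ctl libraries in choroid plexus RNA. In F1_Dep against F0_Ctl 7 of the 10 granule cell genes were called, beside 3.8% of all genes, and 9 of 9 choroid plexus markers, with a median of 6.62.

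With all 12 libraries the remaining marker lists held no called gene in F1_Dep against F1_Ctl. CA1 markers were higher in F1_Dep for 6 of 6 genes, with a median of 0.47, and neocortical markers for 5 of 6, with a median of 0.44. The neocortical level lay between 0.07 and 0.41 in F1_Dep and between -0.29 and -0.04 in F1_Ctl, so these groups did not overlap. Nor did the thalamic level overlap, at -1.10 to -0.39 in F1_Dep against -0.03 to 0.53 in F1_Ctl. The same held for interneuron markers, at 0.03 to 0.19 against -0.08 to -0.003. It also held for markers of immature granule neurons and progenitors, at -0.67 to -0.29 against -0.20 to 0.32. CA3 markers were lower for 5 of 6, with a median of -0.33, and thalamic markers for 6 of 6, with a median of -0.79. Astrocyte markers had a median of -0.26, oligodendrocyte markers 0.24, mossy cell markers -0.22, CA2 markers 0.18, microglial markers -0.15, interneuron markers 0.13, markers of neurons in general -0.11 and endothelial markers 0.01. Without the 3 libraries 1 CA1 marker, 2 CA3 markers and 1 striatal marker were called. The share of counts from mitochondrial genes also differed, at 6.70 to 7.17% in F1_Dep against 7.45 to 10.9% in F1_Ctl, and at 5.09 to 5.32% in F0_Dep against 7.75 to 9.26% in F0_Ctl, without overlap in either generation. The part of mitochondrial share in these results was not tested. The part of tissue composition in the lower granule cell genes was not tested.

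**Figure D5:**
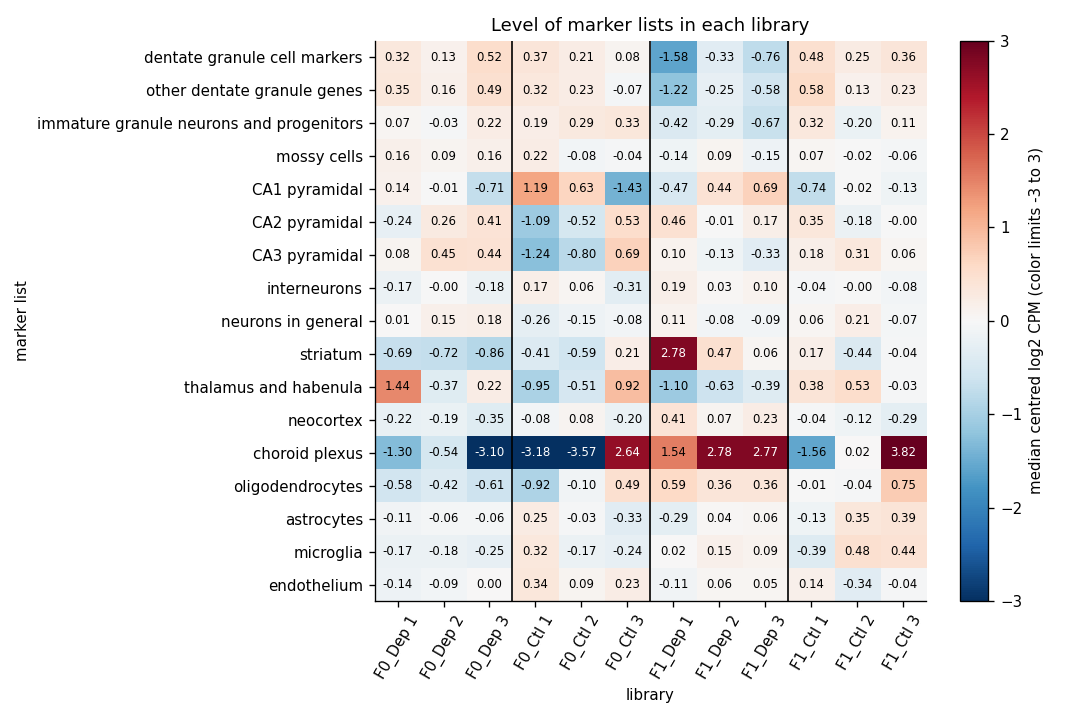
Level of each marker list in each library, the median of its genes' log2 CPM after each gene was centred over the 12 libraries, with libraries grouped as F0_Dep, F0_Ctl, F1_Dep and F1_Ctl. The granule cell rows are below 0 in all 3 F1_Dep libraries, the striatal row stands out in F1_Dep 1 at 2.78, and the choroid plexus row is high in all 3 F1_Dep libraries and in F0_Ctl 3 and F1_Ctl 3.

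A further 8 genes known from granule cells were Plk5, Trpc6, Stxbp6, Npnt, Akap7, Glis3, Rfx3 and Maml2. All 8 were lower in F1_Dep than in F1_Ctl and none overlapped, beside 10.3% of all genes, with a median of -0.97. The 8 were listed with earlier results of these data known, so they are no independent test of the 10 genes. Only Plk5 was called, beside 0.124% of all genes called lower. Plk5, a polo-like kinase family member of neurons, fell to 17.7 ± 5.9 CPM in F1_Dep, against 47.1 ± 5.8 in F1_Ctl (SD, n = 3 each), and its log2 fold change was -1.41 ± 0.21 (adjusted p of 0.0374 by edgeR). The other 7 did not pass. Stxbp6, a syntaxin-binding protein, was at -1.43 ± 0.31, Trpc6, a cation channel, at -1.29 ± 0.37, Npnt at -1.03 ± 0.32, Rfx3, a transcription factor, at -0.92 ± 0.19, Glis3 at -0.86 ± 0.23, Maml2 at -0.66 ± 0.24 and Akap7 at -0.31 ± 0.12. In F0_Dep against F0_Ctl the 8 had a median of 0.11, with none called. Without F1_Dep 1 the median of the 8 in F1_Dep against F1_Ctl was -0.71, with 0 called. Without F1_Dep 1, F1_Ctl 3 and F0_Ctl 3 together it was -0.75, with 4 called, beside 2.06% of all genes. Of 10 markers of immature granule neurons and progenitors, such as doublecortin, 8 were lower in F1_Dep than in F1_Ctl and none was called, with a median of -0.63. In F0_Dep against F0_Ctl 8 of the 10 were also lower and none was called, with a median of -0.17. The summed CPM of these markers was not lower in F1_Dep, at 477 to 606 against 482 to 506 in F1_Ctl.

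Paralogues of the 10 genes and partners of their proteins were read beside them. Of 16 listed, 13 were tested, Bhlhe23 was too low to test, and Lrrtm2 and Sypl1 were not analysed here. None passed in either generation with all 12 libraries. Without F1_Dep 1, F1_Ctl 3 and F0_Ctl 3 together, 1 was called in F1_Dep against F1_Ctl, beside 2.06% of all genes. In that fit 2 were called in F0_Dep against F0_Ctl, where the share of all genes is not given here. In F1_Dep against F1_Ctl 7 of the 13 were lower and 6 higher, with a median of -0.12. Gpc4, the glypican that binds Lrrtm4, was the lowest at -1.03 ± 0.29 with an adjusted p of 0.146 by edgeR, and had 19.5 ± 8.9 CPM in F1_Dep against 39.9 ± 6.1 in F1_Ctl (SD, n = 3 each). Adgrb3, the adhesion receptor of the C1q-like proteins, was at 0.02 ± 0.17, and the kainate receptor subunits Grik2 and Grik4 were at -0.38 ± 0.15 and -0.17 ± 0.33. Nrxn3, a presynaptic protein that binds C1q-like proteins at the mossy fibre synapse, was at 0.31 ± 0.12. Among paralogues, C1ql1 was at -0.22 ± 0.21, Lrrtm1 at 0.01 ± 0.18, Lrrtm3 at 0.64 ± 0.30, Syp at -0.12 ± 0.11, Dock9 at 0.14 ± 0.15, Dock11 at -0.37 ± 0.16 and Prox2 at 0.34 ± 0.21. In F0_Dep against F0_Ctl the 13 had a median of 0.13 and ranged between -0.79 for C1ql1 and 0.69 for Grik4.

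Genes of the tryptophan route around Tdo2 were followed as well. Of 10 listed, 7 were tested, and none passed in either generation. In F1_Dep against F1_Ctl 4 were lower and 3 higher, with a median of -0.06, and in F0_Dep against F0_Ctl the median was 0.03.

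Levels between genes can be compared per transcript length in the deposited FPKM values, which were used for 9 libraries, those of F1_Dep, F0_Dep and F0_Ctl. Synpr had the highest FPKM of the 10 genes in each of these groups, with 35.7 ± 10.6 in F1_Dep, 83.8 ± 6.5 in F0_Dep and 61.9 ± 3.6 in F0_Ctl (SD, n = 3 each). Tdo2 had the lowest, with 0.88 ± 0.51 in F1_Dep, 3.45 ± 0.71 in F0_Dep and 3.15 ± 1.92 in F0_Ctl. Prox1 ranked 7 in F1_Dep at 9.10 ± 4.74 and 7 in F0_Dep at 23.2 ± 4.6, and 6 in F0_Ctl at 19.3 ± 4.0. C1ql2 ranked 6 in F1_Dep at 12.8 ± 11.3, 5 in F0_Dep at 40.4 ± 6.9 and 2 in F0_Ctl at 55.6 ± 11.7. Many neighbours in this order did not differ beyond their spread, among them Dock10 and Prox1 in F0_Dep at 23.6 ± 4.2 and 23.2 ± 4.6. Tested with limma on log2(FPKM + 1), none of the 10 genes passed in F0_Dep against F0_Ctl, where 19.2% of all genes were called, or in F1_Dep against F0_Ctl, where 0.159% were called. Unlike in CPM, the F0 libraries did not overlap in FPKM for Synpr, Lrrtm4 and C1ql2. Synpr had 76.2 to 87.9 in F0_Dep against 57.9 to 64.8 in F0_Ctl, and Lrrtm4 16.2 to 21.8 against 14.0 to 15.5. C1ql2 was lower in F0_Dep, at 33.2 to 46.9 against 47.1 to 69.0. The share of all genes without overlap in FPKM was not counted.

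The genes whose pattern over the 12 libraries lay nearest to these were found among 13123 tested genes with a mean of at least 2 CPM, by the mean absolute difference of centred log2 CPM. Trpc6 at 0.13, Stxbp6 at 0.13 and Olfm4 at 0.15 lay nearest to Prox1, where the median gene lay at 0.55. Stxbp6 at 0.20, Plk5 at 0.22 and Arsj at 0.23 lay nearest to Tdo2, where the median gene lay at 0.67. Rfx3 at 0.11, Mcm6 at 0.12 and Neurod1 at 0.13 lay nearest to the median of the 10 genes, where the median gene lay at 0.47. Trpc6, Stxbp6, Plk5 and Rfx3 are also on the list of other granule cell genes, which was made with earlier results of these data known. Of the 10 genes themselves Bhlhe22 at 0.18 and Lrrtm4 at 0.18 lay nearest to Prox1, and Synpr at 0.24 nearest to Tdo2.

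In the annotation, exons of 4 of the 10 genes overlapped those of a gene on the other strand, Prox1os at Prox1, Gm10129 at Dsp, Gm37811 and Gm37824 at C1ql3 and Gm4409 at Lrrtm4. The library kit marks strand, but the sources used here do not say whether strand was used in counting, so reads of these pairs cannot be told apart. Counts were not whole in at least 1 library for 4 genes, Synpr, Calb1, Lrrtm4 and Dock10.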

How the data were processed

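RNA of 12 hippocampi was sequenced with a stranded mRNA kit, per the labels' protocols. The authors deposited expected counts (estimated counts, some not whole) for all 12 libraries and FPKM values for 9 libraries (FPKM of F1_Ctl were not used here). HISAT2, Cufflinks 2.2.1 and mm10 are named without roles, per the submitters' processing notes. The sources used here do not name the counting tool or its annotation. Symbols came from the FPKM files and a gene name table for 35202 of 35812 IDs, and IDs without a name held 0.579% of counts.

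Expected counts were rounded and tested with edgeR 4.0.16 (R 4.3.3), TMM scaling and filterByExpr, with 16178 genes in 1 fit over 4 groups. Genes were called at a Benjamini-Hochberg adjusted p under 0.05, and standard errors, derived from the F statistic, are approximate. The script was tested on simulated data. The deposited FPKM were tested as log2(FPKM + 1) with limma 3.58.1 over 13820 genes that reached 1 FPKM in 3 or more libraries, a scale that understates changes of low genes. Centred levels used log2 CPM with a prior count of 2, and ratios to Prox1 a pseudocount of 0.5. Coordinates are of GENCODE M21 on GRCm38.

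The 10 genes and all lists were chosen with earlier results of these data known. Named were the 10 genes, genes of the other lists that passed, all members of the list of other granule cell genes and of the list of paralogues and partners (1 of these is not reported here by name), and the 3 genes nearest in pattern to Prox1, to Tdo2 and to the median of the 10. The other marker lists covered immature granule neurons, mossy cells, CA1, CA2 and CA3 pyramidal cells, interneurons, neurons in general, striatum, thalamus and habenula, neocortex, choroid plexus, oligodendrocytes, astrocytes, microglia and endothelium. Alternatives were DESeq2 1.42.0, RLE scaling, library totals, no filter, fits of only the compared groups, a replicate block, FPKM, and each library left out. Libraries of a group all differed by more than sampling noise. P-values set differences against the spread between these mice, which may share fathers or litters within a group.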

Additional observations from a re-analysis of the deposited data

Results flagged for a closer look

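Dock11, a paralogue of Dock10, moved in opposite directions in the 2 generations without overlap between libraries. It had 17.9 ± 1.4 CPM in F1_Dep and 23.1 ± 4.5 CPM in F1_Ctl, a log2 fold change of -0.37 ± 0.16, and 25.1 ± 3.8 CPM in F0_Dep and 19.2 ± 2.2 CPM in F0_Ctl, a log2 fold change of 0.38 ± 0.16 (SD, n = 3 each, and SE). The difference between the changes, tested as an interaction, was -0.75 ± 0.22 with an adjusted p of 0.170 by edgeR, which did not pass. Dock11 was the only gene flagged in a search over the 10 genes, the other granule cell genes and the paralogues and partners. The share of all genes that move in this way was not counted. Non-overlap in a single comparison was common, at 27.4% of all genes in F0_Dep against F0_Ctl, either direction, and 10.3% lower in F1_Dep against F1_Ctl. No outlier check was made, since it needs groups of at least 4 libraries.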

How the results depend on the processing

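In F1_Dep against F1_Ctl all 10 genes remained lower under every alternative run, with medians between -1.47 and -1.01, while the number called, 3 in the report, changed. It was 6 with DESeq2, 0 with only the F1 groups fitted, 0 with a replicate block, 6 without F0_Ctl 3, F1_Ctl 3 and F1_Dep 1 together, and 0 to 4 with single libraries left out. For F1_Dep against F0_Ctl it was 0 in the report, 5 with DESeq2, 2 without a filter on low counts, 7 without those 3 libraries and 0 with single libraries left out. For the interaction it was 0 in the report and 6 with DESeq2, beside 3.18% of all genes. It was 2 without a filter and 5 without those 3 libraries. With single libraries left out it was 0 to 2, where 2 were called without F0_Ctl 3, without F1_Dep 2 and without F1_Ctl 3. The shares of all genes called without a filter, and in the interaction with libraries left out, are not given here. Those counts are therefore not read as results about the 10 genes. For F0_Dep against F0_Ctl and F1_Ctl against F0_Ctl it was 0 in all settings. DESeq2 called 524 genes in all in F1_Dep against F1_Ctl, edgeR 27 in the report, 0 with only those 2 groups and 335 without the 3 libraries. The cause of these differences was not tested.

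The correlations of deviations of same-numbered libraries 1 to 3 were 0.02, -0.10 and -0.09 for F1_Dep with F1_Ctl, 0.04, -0.11 and -0.11 for F0_Dep with F0_Ctl, -0.05, -0.18 and -0.14 for F1_Dep with F0_Ctl, and 0.03, 0.14 and 0.50 for F1_Ctl with F0_Ctl. In none of these were all 3 over 0.1, so the numbers are not read as pairs, although F1_Ctl 3 and F0_Ctl 3 deviated together. With the replicate block Synpr had an adjusted p of 0.0822, Lrrtm4 0.0828 and Tdo2 0.111 in F1_Dep against F1_Ctl by edgeR, and no other call on the 10 genes changed. For the ratios to Prox1, sign flips of same-numbered pairs (replicate block) gave exact p-values of 0.25 to 1.0.

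Some values changed sign, and none of them was called. In F0_Dep against F0_Ctl, C1ql2 was 0.0067 with DESeq2 and 0.0091 with RLE scaling, and Synpr was -0.022 with library totals, -0.0051 without a filter and -0.036 without the 3 libraries. Without the 3 libraries Prox1 was -0.019 there, C1ql3 -0.076 in F1_Ctl against F0_Ctl, and Calb1 0.050 in the interaction. With all 12 libraries Calb1 was at -0.56 in the interaction, which was not near 0. On FPKM, Calb1 was 0.29 in F0_Dep against F0_Ctl, Tdo2 relative to Prox1 -0.043 and Synpr relative to Prox1 0.17. With single libraries left out, F0_Dep against F0_Ctl ranged between -0.14 and 0.22 for C1ql2, -0.42 and 0.20 for Calb1, -0.084 and 0.41 for Tdo2, -0.050 and 0.14 for Synpr, -0.051 and 0.22 for Prox1, and -0.013 and 0.18 for Bhlhe22. F1_Ctl against F0_Ctl ranged between -0.29 and 0.32 for Calb1, -0.14 and 0.30 for C1ql3, and -0.059 and 0.25 for Prox1. Tdo2 relative to Prox1 ranged between -0.25 and 0.24 in F0_Dep against F0_Ctl and -0.36 and 0.13 in F1_Dep against F0_Ctl. Synpr relative to Prox1 ranged between -0.16 and 0.28 in F1_Dep against F1_Ctl and -0.23 and 0.022 in F0_Dep against F0_Ctl.

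Groups of 3 mice limit these tests, and an exact test of 3 against 3 cannot go below 0.1. What depth limits was not tested. The smallest count of the 10 genes was 33, for Tdo2 in F1_Dep 1. FPKM could not be tested for comparisons with F1_Ctl.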
